A study of Mus musculus with 12 samples.

Results

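The genes described here are 10 transcripts of the luminal face of the kidney's proximal tubule. They were picked by symbol for what their proteins do, and are 10 of the 14091 genes with read counts in the deposited kidney table. Tmigd1, Mep1a, Mep1b, Vil1, Cdhr2 and Cdhr5 make up 6 brush border genes, and Lrp2, Cubn, Amn and Dab2 make up 4 endocytic genes. A gene needed a row in that table to be picked, and the authors' table holds only genes with enough reads, so all 10 passed the filter on low counts used here. The choice was made with the low levels of some of these genes on the high-fat diet already known, so the p-values below describe the size of a difference against the spread and are not independent support for it.

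The proximal tubule reclaims most of what the glomerulus filters, and its luminal membrane is folded into densely packed microvilli, the brush border. Actin bundles hold each microvillus up, protocadherins link the tips of neighbours, and peptidases on the surface cut filtered peptides. Between the microvilli, megalin (Lrp2) and cubilin (Cubn) capture filtered proteins, vitamin carriers and hormones, amnionless (Amn) carries cubilin to the membrane, and the adaptor Dab2 joins the receptors to clathrin.

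Kidneys came from wild-type male C57BL/6 mice. Feeding began at 10 weeks of age and lasted 12 weeks, on chow rich in fat and sucrose (HFD, 29% fat, 12.6% protein and 46.2% carbohydrate) or on a normal diet (ND, 10% fat, 20.0% protein and 70.0% carbohydrate). The mice then had hepatic ischemia-reperfusion injury (hIRI), 60 min of clamping of the blood supply to part of the liver, or a sham laparotomy without the clamp, and kidneys were taken 6 h later. The clamp lay on the liver, not on the kidney. The groups were HFD + hIRI, HFD + sham, ND + hIRI and ND + sham, with 3 libraries each, and each library was taken as 1 mouse, as the labels number them.

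The libraries held 20874584 to 29451344 counts. The 10 genes drew 766 to 113314 counts per library. Levels are in CPM, read counts divided by library size after TMM, a scaling that assumes most genes do not change. Differences are log2 fold changes with their standard error (SE) from edgeR's quasi-likelihood test, fitted to all 14091 genes and all 12 libraries at once, and a difference is said to pass at a Benjamini-Hochberg adjusted p under 0.05 over all genes. On the first principal component of all genes (54.4% of the variance) HFD + hIRI replicates 1 and 2 lay far out, at 97.4 and 44.9, while ND + hIRI replicate 1, at -26.0, lay among the sham kidneys (-37.9 to -18.5). The results below are therefore also given without HFD + hIRI replicate 1 and ND + hIRI replicate 1 together, a choice that was made once these values were known. Leaving out a hIRI library because it lay among the sham kidneys favours a larger difference between ND + hIRI and ND + sham. Over all genes the calls in that comparison rose from 0 to 2322, so its adjusted p in this fit are no test of a response.

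The plot of levels by library shows the 10 genes side by side. Levels of different genes can be compared only per kilobase of exon, and on that scale Mep1a led with a mean of 746 CPM per kb over the 12 libraries, above 99.6% of all genes. Lrp2 followed at 203 and Tmigd1 at 179 CPM per kb, then Dab2 at 128, Vil1 at 90.7, Cdhr5 at 74.8, Amn at 72.5, Mep1b at 68.7 and Cubn at 65.6 CPM per kb. Cdhr2 was lowest, at 13.5 CPM per kb, which is still above 66.0% of all genes. A few of the genes have exons reaching into the span of a gene on the other strand. The longest stretch of a single exon in such a span was 49 bases for Vil1 (Usp37), 498 bases for Cubn (Gm13270) and 319 bases for Dab2 (the processed pseudogene Gm18888). Without a stated strand setting, reads cannot be told apart where exons of both genes overlap.

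**Figure D1:**
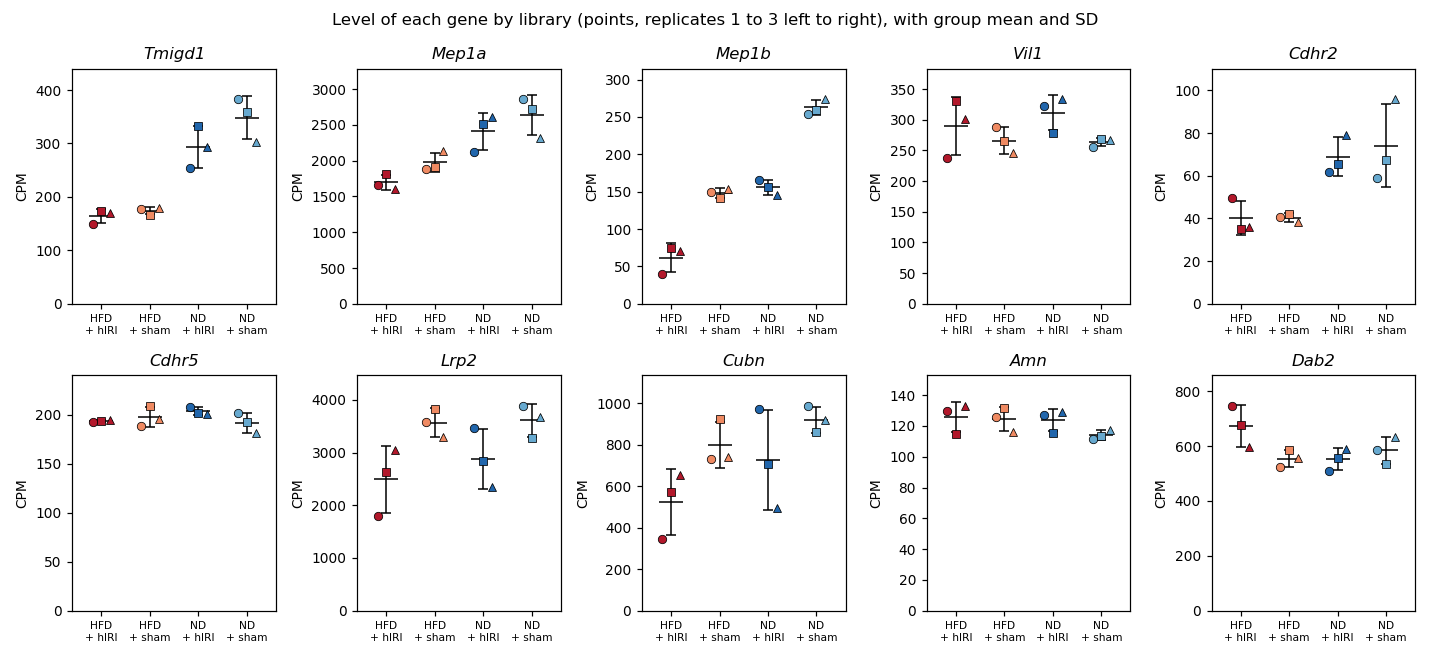
Level of each of the 10 genes in CPM (vertical axes, from 0) in the 12 kidney libraries, grouped as HFD + hIRI, HFD + sham, ND + hIRI and ND + sham. Points are libraries and bars are the group mean and SD of 3. Tmigd1 lies between 148 and 179 CPM in all 6 HFD libraries and between 254 and 383 CPM in all 6 ND libraries, while Cdhr5 stays between 181 and 209 CPM in all 12.

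Tmigd1 (mm10 chr11:76904545-76916586, plus strand, 7 exons) encodes an immunoglobulin-domain adhesion protein of the brush border. It had 148, 173 and 169 CPM in HFD + hIRI kidneys, 177, 166 and 179 CPM in HFD + sham kidneys, 254, 333 and 294 CPM in ND + hIRI kidneys, and 383, 360 and 303 CPM in ND + sham kidneys. Every HFD library was below every ND library, with or without hIRI. In HFD + sham against ND + sham the log2 fold change was -1.001 (SE 0.12, edgeR adjusted p = 0.0386), and only 2 of the 14091 genes passed in that comparison (0.0142% lower and 0% higher), Tmigd1 being 1 of them. In HFD + hIRI against ND + hIRI it was -0.84 (SE 0.12, adjusted p = 0.0239). Between surgeries within a diet none passed, at -0.09 (SE 0.12, adjusted p = 0.597) for HFD + hIRI against HFD + sham and -0.25 (SE 0.12, adjusted p = 0.377) for ND + hIRI against ND + sham. In these tissue homogenates fewer cells of a type and less RNA per cell cannot be told apart, here and for the genes below.

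The Tmigd1 difference between sham groups was steady in size, from -1.09 to -0.93 when each of the 12 libraries was left out in turn, but its adjusted p was not. It stayed under 0.05 only without ND + sham replicate 3, ND + hIRI replicate 1, HFD + hIRI replicate 1 or HFD + hIRI replicate 3, and ran from 0.0510 to 0.311 without any of the other 8. Between the hIRI groups the fold change ran from -0.94 to -0.74, and the call was lost, at adjusted p = 0.0531 to 0.0798, without ND + hIRI replicate 2, HFD + sham replicate 2, HFD + sham replicate 3 or HFD + hIRI replicate 2. The sham difference also missed with a minimum of 10 counts in every library (adjusted p = 0.0633) or with the run of library numbers as a covariate (adjusted p = 0.111), and the hIRI difference missed when only the 6 libraries compared were fitted (adjusted p = 0.354). Without HFD + hIRI replicate 1 and ND + hIRI replicate 1 together both differences passed, at -1.001 (adjusted p = 0.0023) between sham groups and -0.87 (adjusted p = 0.0115) between hIRI groups.

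Mep1a (chr17:43474329-43502773, minus strand, 14 exons) and Mep1b (chr18:21072344-21100199, plus strand, 15 exons) encode the alpha and beta subunits of meprin, a metalloprotease of the brush border. Mep1b had 39.6, 75.2 and 70.5 CPM in HFD + hIRI kidneys, 149.5, 142 and 154 CPM in HFD + sham kidneys, 165, 157 and 145 CPM in ND + hIRI kidneys, and 255, 259.8 and 274 CPM in ND + sham kidneys. The ND + sham libraries lay above all others and the HFD + hIRI libraries below all others, while HFD + sham and ND + hIRI overlapped between them. Mep1a had 1663, 1818 and 1610 CPM in HFD + hIRI kidneys, 1888, 1911 and 2133 CPM in HFD + sham kidneys, 2116, 2506 and 2606 CPM in ND + hIRI kidneys, and 2858, 2725 and 2317 CPM in ND + sham kidneys. HFD libraries lay below ND libraries of the same surgery, but the groups were closer together than for Mep1b.

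Mep1b passed in both comparisons of HFD + hIRI kidneys. Its log2 fold change was -1.33 (SE 0.19, edgeR adjusted p = 0.0236) against ND + hIRI and -1.26 (SE 0.19, adjusted p = 0.0114) against HFD + sham. It was -0.82 (SE 0.19, adjusted p = 0.276) in HFD + sham against ND + sham and -0.75 (SE 0.19, adjusted p = 0.159) in ND + hIRI against ND + sham, and neither passed, although the libraries compared did not overlap in either case. The difference between sham groups passed with edgeR's likelihood ratio test (adjusted p = 0.0242), DESeq2 (0.0093) and limma voom with quality weights (0.0044). It also passed with only the libraries compared (0.0065). The diet by surgery interaction was -0.51 (SE 0.26, adjusted p = 0.519), so a larger response on HFD was not shown. Mep1a had -0.51 (SE 0.12, adjusted p = 0.0599) in HFD + hIRI against ND + hIRI and -0.41 (SE 0.12, adjusted p = 0.370) in HFD + sham against ND + sham. After hIRI Mep1a passed as lower with upper quartile scaling (adjusted p = 0.0461), library totals (0.0290), the likelihood ratio test (0.0174), DESeq2 (0.0012) and voom (0.0309). After sham it did with DESeq2 (0.0462) and voom (0.0429).

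HFD + hIRI replicate 1 was the lowest Mep1b library, and without it and ND + hIRI replicate 1 Mep1b passed as lower in all 4 comparisons. The fold changes were then -1.05 (adjusted p = 0.0010) for HFD + hIRI against ND + hIRI, -1.03 (adjusted p = 4.4e-04) for HFD + hIRI against HFD + sham, -0.82 (adjusted p = 0.0023) for HFD + sham against ND + sham and -0.80 (adjusted p = 7.3e-04) for ND + hIRI against ND + sham. With single libraries left out, the HFD + hIRI against ND + hIRI call was lost, at adjusted p = 0.0531 to 0.0763, without ND + hIRI replicate 2, HFD + sham replicate 2 or HFD + sham replicate 3. The HFD + hIRI against HFD + sham call was lost, at 0.0513 to 0.0710, without HFD + sham replicate 2 or HFD + sham replicate 3, and at 0.0518 with the run of library numbers as a covariate. The first of these calls was also lost, at 0.354, when only the 6 libraries compared were fitted.

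Because both subunits are read in the same library, their ratio does not depend on scaling. For every 100 Mep1a reads there were 2.38, 4.13 and 4.38 Mep1b reads in HFD + hIRI kidneys, 7.92, 7.41 and 7.22 in HFD + sham kidneys, 7.82, 6.25 and 5.57 in ND + hIRI kidneys, and 8.91, 9.53 and 11.8 in ND + sham kidneys. The 3 HFD + hIRI ratios lay below all 9 others and the 3 ND + sham ratios above all 9 others, as the plot of ratios shows. The beta subunit was thus lower in proportion to the alpha subunit.

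Cdhr2 (chr13:54701463-54736662, plus strand, 32 exons) and Cdhr5 (chr7:141269085-141276786, minus strand, 15 exons) encode the protocadherins that meet between microvillus tips. Cdhr2 had 49.4, 35.0 and 36.0 CPM in HFD + hIRI kidneys, 40.5, 42.3 and 38.2 CPM in HFD + sham kidneys, 61.8, 65.6 and 79.2 CPM in ND + hIRI kidneys, and 58.7, 67.6 and 95.9 CPM in ND + sham kidneys. All 6 HFD libraries lay below all 6 ND libraries, as for Tmigd1. Its log2 fold change was -0.78 (SE 0.19, edgeR adjusted p = 0.0655) in HFD + hIRI against ND + hIRI and -0.88 (SE 0.19, adjusted p = 0.266) in HFD + sham against ND + sham, and neither passed. Between surgeries it was -0.01 (SE 0.19, adjusted p = 0.980) on HFD and -0.11 (SE 0.19, adjusted p = 0.813) on ND. After hIRI Cdhr2 passed as lower between diets with library totals (adjusted p = 0.0452), edgeR's likelihood ratio test (0.0079), DESeq2 (0.0050) and limma voom with quality weights (0.0133). After sham it did with the likelihood ratio test (0.0118), DESeq2 (0.0061) and voom (0.0225). The share of all genes called lower rose in each of these settings too.

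Its partner Cdhr5 had 193 to 195 CPM in HFD + hIRI kidneys, 189 to 209 CPM in HFD + sham kidneys, 201 to 208 CPM in ND + hIRI kidneys and 181 to 201 CPM in ND + sham kidneys. None of its differences passed, and the 95% interval for HFD + hIRI against ND + hIRI ran from -0.24 to 0.09 on the log2 scale. Reads of Cdhr2 per 100 reads of Cdhr5 were 25.6, 18.1 and 18.5 in HFD + hIRI, 21.5, 20.3 and 19.5 in HFD + sham, 29.7, 32.5 and 39.5 in ND + hIRI, and 29.2, 35.1 and 52.9 in ND + sham. The ratio of the adhesion partners was thus lower in each HFD library than in each ND library.

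Vil1 (chr1:74409384-74435560, plus strand, 20 exons) encodes villin, which bundles and severs microvillus actin. It had 238, 331 and 301 CPM in HFD + hIRI kidneys, 288, 265 and 245 CPM in HFD + sham kidneys, 322, 279 and 333 CPM in ND + hIRI kidneys, and 256, 268 and 267 CPM in ND + sham kidneys. The groups overlapped except that all ND + hIRI libraries were above all ND + sham libraries, at 0.24 (SE 0.12, adjusted p = 0.399). For HFD + hIRI against ND + hIRI the fold change was -0.10, with a 95% interval from -0.37 to 0.17, so the Tmigd1 value of -0.84 lay outside it, and the sign turned without both of the libraries named above (0.04). There were 62.3, 52.4 and 56.2 Tmigd1 reads per 100 Vil1 reads in HFD + hIRI, 61.6, 62.7 and 72.9 in HFD + sham, 78.7, 119 and 88.0 in ND + hIRI, and 149, 134 and 114 in ND + sham. Every HFD library fell below every ND library on that ratio.

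**Figure D2:**
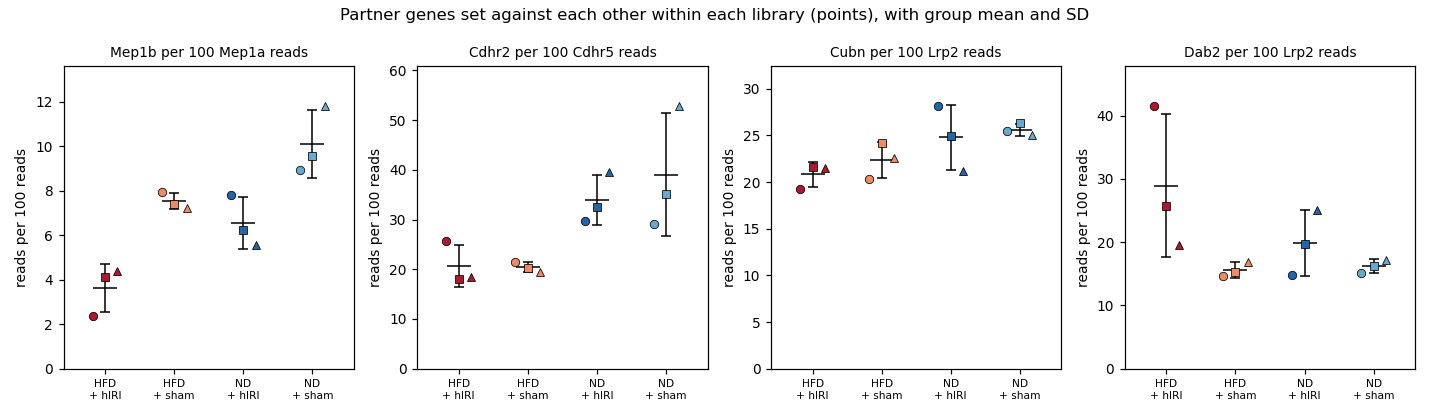
Reads of one gene per 100 reads of its partner in the same library (vertical axes, from 0), for Mep1b over Mep1a, Cdhr2 over Cdhr5, Cubn over Lrp2 and Dab2 over Lrp2, in HFD + hIRI, HFD + sham, ND + hIRI and ND + sham kidneys. Points are libraries and bars the mean and SD of 3. HFD + hIRI kidneys have 2.38 to 4.38 Mep1b reads per 100 Mep1a reads, below the 5.57 to 11.8 of all other libraries.

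Averaging the diet contrast over both kinds of surgery used all 12 libraries. In both HFD groups against both ND groups, Tmigd1 was lower by a log2 fold change of -0.92 (SE 0.09, edgeR adjusted p = 0.0022), Mep1b by -1.08 (SE 0.13, adjusted p = 0.0060), Cdhr2 by -0.83 (SE 0.13, adjusted p = 0.0178) and Mep1a by -0.46 (SE 0.08, adjusted p = 0.0226). These 4 of the 6 brush border genes passed as lower and none of the 10 genes passed as higher, beside 1.65% of all genes lower and 1.1% higher. Vil1 (-0.04, SE 0.09) and Cdhr5 (-0.01, SE 0.05) did not pass. Tmigd1 and Mep1b passed with any single library left out, whereas Cdhr2 missed, at adjusted p = 0.0523 to 0.0574, without any 1 of the 3 HFD + sham libraries. Mep1a missed, at 0.0522 to 0.0790, without any 1 of those or without ND + sham replicate 1, ND + sham replicate 2 or ND + hIRI replicate 2. All 4 passed without HFD + hIRI replicate 1 and ND + hIRI replicate 1 together, at -0.94 for Tmigd1, -0.94 for Mep1b, -0.95 for Cdhr2 and -0.49 for Mep1a.

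Because Tmigd1, Mep1a and Cdhr2 were lower on HFD and Vil1 was not, the 250 bases before the transcription start of these 4 genes are shown for comparison, from RefSeq on GRCm38.p6, taking the RefSeq start nearest to that of the deposited table. For Tmigd1 that RefSeq start lies upstream of the span in the deposited table, which begins at 76904545. Capitals mark matches to 7 short motifs searched on both strands, and no marked match overlaps another.
Tmigd1, chr11:76901909-76902158, plus strand: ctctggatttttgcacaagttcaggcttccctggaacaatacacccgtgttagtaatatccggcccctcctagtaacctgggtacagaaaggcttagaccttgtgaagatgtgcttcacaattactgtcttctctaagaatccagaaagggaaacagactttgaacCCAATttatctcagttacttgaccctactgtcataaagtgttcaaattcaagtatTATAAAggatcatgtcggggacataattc
Mep1a, chr17:43502774-43503023, minus strand: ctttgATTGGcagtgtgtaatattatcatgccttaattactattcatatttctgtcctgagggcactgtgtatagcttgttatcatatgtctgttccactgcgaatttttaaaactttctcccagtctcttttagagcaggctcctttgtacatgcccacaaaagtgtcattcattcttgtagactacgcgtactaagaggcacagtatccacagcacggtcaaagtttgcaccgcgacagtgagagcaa
Cdhr2, chr13:54701213-54701462, plus strand: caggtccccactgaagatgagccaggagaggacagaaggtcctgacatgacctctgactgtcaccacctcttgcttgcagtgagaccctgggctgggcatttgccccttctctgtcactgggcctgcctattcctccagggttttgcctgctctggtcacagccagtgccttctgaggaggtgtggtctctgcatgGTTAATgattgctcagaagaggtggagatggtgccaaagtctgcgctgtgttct
Vil1, chr1:74409134-74409383, plus strand: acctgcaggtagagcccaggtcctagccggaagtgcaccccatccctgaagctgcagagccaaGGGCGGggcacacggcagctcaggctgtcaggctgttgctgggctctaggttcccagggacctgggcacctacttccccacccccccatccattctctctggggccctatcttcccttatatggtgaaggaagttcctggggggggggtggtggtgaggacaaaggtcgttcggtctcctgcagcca

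The RefSeq windows, 300 bases each with the last 50 from the start onward, matched 9 of the 10 genes (11 windows), all but Mep1b. Tmigd1 has a TATA box (TATAAA) whose first base is at -29 and a CCAAT box (CCAAT) at -84, where the transcription start is 0. TATAAA was found in no other member window, against 13.6% of all 32851 promoter windows, and CCAAT in the windows of 3 members (Tmigd1, Mep1a and Amn), against 37.4% of all. Cdhr2 has an HNF1 motif (GTTAAT) at -54, also present in 1 window of Dab2 and found in 7.1% of all windows. Vil1 has a GC box (GGGCGG) at -187, as do windows of Lrp2 and Amn, against 35.7% of all windows. A CDX motif (TTTATGG, 2.75% of all windows) was in the Mep1a window 13 bases after the start, and neither HNF4 motif searched (CAAAGTCCA, 0.475% of all, and CAAAGTTCA, 0.39% of all) was in any member window. No motif was shared by Tmigd1, Mep1a and Cdhr2, and these matches describe letters and not binding.

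Lrp2 (chr2:69424335-69586067, minus strand, 79 exons) encodes megalin, the large scavenger receptor of the proximal tubule. It had 1795, 2636 and 3046 CPM in HFD + hIRI kidneys, 3589, 3829 and 3288 CPM in HFD + sham kidneys, 3461, 2840.3 and 2338 CPM in ND + hIRI kidneys, and 3881, 3273 and 3674 CPM in ND + sham kidneys. Cubn (chr2:13276338-13491876, minus strand, 67 exons), the gene of its partner cubilin, had 346, 571 and 657 CPM in HFD + hIRI kidneys, 731, 926 and 742 CPM in HFD + sham kidneys, 975, 709 and 496 CPM in ND + hIRI kidneys, and 987, 861 and 918 CPM in ND + sham kidneys. On both diets the hIRI libraries were spread widely and in the same order for both receptors, and on HFD all were below the sham libraries.

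Neither receptor passed in any comparison under the quasi-likelihood test of all 12 libraries. In HFD + hIRI against HFD + sham the log2 fold change was -0.52 (SE 0.19, edgeR adjusted p = 0.0713) for Lrp2 and -0.61 (SE 0.26, adjusted p = 0.104) for Cubn. In ND + hIRI against ND + sham it was -0.33 (SE 0.19, adjusted p = 0.454) for Lrp2 and -0.34 (SE 0.26, adjusted p = 0.549) for Cubn. In the diet comparison after hIRI it was -0.21 (SE 0.19, adjusted p = 0.490) for Lrp2 and -0.47 (SE 0.26, adjusted p = 0.254) for Cubn, and in HFD + sham against ND + sham it was -0.02 (SE 0.19, adjusted p = 0.993) for Lrp2 and -0.21 (SE 0.26, adjusted p = 0.892) for Cubn.

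Other settings and single libraries moved the receptor calls. With all 12 libraries kept, Lrp2 passed as lower in HFD + hIRI against HFD + sham with library totals as the scaling (adjusted p = 0.0477), with DESeq2 (adjusted p = 0.0393) and with limma voom with quality weights (adjusted p = 0.0099), and Cubn with limma voom alone (adjusted p = 0.0286). Without ND + hIRI replicate 1 and HFD + hIRI replicate 1, ND + hIRI against ND + sham gave -0.48 (SE 0.13, adjusted p = 0.0303) for Lrp2 and -0.61 (SE 0.16, adjusted p = 0.0284) for Cubn, both passing as lower, with Mep1b, beside 1027 lower and 1295 higher of all genes. Without ND + hIRI replicate 1 alone the fold changes were the same, at adjusted p = 0.196 for Lrp2 and 0.191 for Cubn. That library had the highest Lrp2 and Cubn levels of its group, so leaving it out widens these differences. The adjusted p without it are therefore no test of a response to hIRI on ND. The fit without both gave -0.33 (adjusted p = 0.101) for Lrp2 and -0.38 (adjusted p = 0.123) for Cubn in HFD + hIRI against HFD + sham. Between diets after hIRI the signs turned, to 0.13 (adjusted p = 0.672) for Lrp2 and 0.03 (adjusted p = 0.960) for Cubn. Without HFD + hIRI replicate 3 alone, both receptors passed as lower in HFD + hIRI against HFD + sham, at -0.69 (adjusted p = 0.0247) for Lrp2 and -0.80 (adjusted p = 0.0481) for Cubn.

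Cubn reads per 100 Lrp2 reads varied less than either gene, at 19.3, 21.6 and 21.6 in HFD + hIRI, 20.4, 24.2 and 22.6 in HFD + sham, 28.2, 25.0 and 21.2 in ND + hIRI, and 25.4, 26.3 and 25.0 in ND + sham. The 3 HFD + sham ratios lay below the 3 ND + sham ratios, and otherwise the groups overlapped except HFD + hIRI and ND + sham.

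Amn (chr12:111271111-111276426, plus strand, 12 exons), which encodes the membrane anchor of cubilin, had 129.7, 115 and 133 CPM in HFD + hIRI kidneys, 126, 132 and 116 CPM in HFD + sham kidneys, 127, 116 and 129 CPM in ND + hIRI kidneys, and 111, 113 and 118 CPM in ND + sham kidneys. The groups overlapped in every comparison, and none passed. In HFD + hIRI against HFD + sham the fold change was 0.01 with a 95% interval from -0.18 to 0.20, and its sign turned under other scalings. Amn reads per 100 Cubn reads were 37.5, 20.2 and 20.2 in HFD + hIRI, 17.2, 14.2 and 15.7 in HFD + sham, 13.03, 16.3 and 26.0 in ND + hIRI, and 11.3, 13.2 and 12.8 in ND + sham, highest in HFD + hIRI replicate 1, where Cubn was lowest.

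Dab2 (chr15:6299789-6440709, plus strand, 15 exons), the clathrin adaptor that binds megalin's tail, had 746, 678 and 595 CPM in HFD + hIRI kidneys, 523, 584 and 556 CPM in HFD + sham kidneys, 509.7, 558 and 588 CPM in ND + hIRI kidneys, and 588, 533 and 633 CPM in ND + sham kidneys. All HFD + hIRI libraries were above all HFD + sham and all ND + hIRI libraries, but they overlapped with ND + sham. The fold change was 0.29 (SE 0.11, edgeR adjusted p = 0.129) for HFD + hIRI against ND + hIRI and 0.28 (SE 0.11, adjusted p = 0.0827) for HFD + hIRI against HFD + sham, and neither passed. Its diet by surgery interaction was 0.36 (SE 0.15, unadjusted p = 0.0375, adjusted p = 0.486). Without HFD + hIRI replicate 3 it passed as higher in both comparisons, at 0.37 (adjusted p = 0.0452) against ND + hIRI and 0.36 (adjusted p = 0.0314) against HFD + sham. Without replicate 1 of both hIRI groups it was 0.15 (adjusted p = 0.533) and 0.20 (adjusted p = 0.198).

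Set against megalin, Dab2 reads per 100 Lrp2 reads were 41.5, 25.7 and 19.5 in HFD + hIRI kidneys, 14.6, 15.3 and 16.9 in HFD + sham kidneys, 14.7, 19.7 and 25.1 in ND + hIRI kidneys, and 15.1, 16.3 and 17.2 in ND + sham kidneys. The ratio was above that of all 6 sham libraries in all 3 HFD + hIRI libraries and in ND + hIRI replicates 2 and 3, but not in ND + hIRI replicate 1.

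Counted over the 10 genes, HFD + hIRI against ND + hIRI gave 2 lower (Mep1b and Tmigd1) and none higher, beside 0.816% of all genes lower and 0.532% higher. Their libraries did not overlap for 5 genes that were lower (Tmigd1, Mep1a, Mep1b, Cdhr2 and Cdhr5) and for Dab2, which was higher, beside 11.5% of all genes lower and 12.2% higher. In HFD + sham against ND + sham the libraries did not overlap for 4 lower genes (Tmigd1, Mep1a, Mep1b and Cdhr2) and no higher gene, beside 12.5% of all genes lower and 12.7% higher. Without HFD + hIRI replicate 3, 4 genes were lower after hIRI (Mep1a, adjusted p = 0.0403, and Cdhr2, adjusted p = 0.0463, besides the first 2) and Dab2 was higher. The shares of all genes rose in that fit too, to 7.71% lower and 10.5% higher. Without ND + hIRI replicate 2, HFD + sham replicate 2 or HFD + sham replicate 3 none of the 10 was called lower. In these fits 0.0142%, 0.0426% and 0.0284% of all genes were lower, in that order. After sham, 2 were lower (Mep1b besides Tmigd1) without HFD + hIRI replicate 1, alone or with ND + hIRI replicate 1. Of all genes, 0.0426% were lower and 0.0284% higher without it alone, and 0.213% lower and 0.241% higher without both. The median log2 fold change of the 10 was -0.34 after hIRI and -0.14 after sham, beside 0.00 for all genes in both.

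When HFD + hIRI was set against HFD + sham, 1 gene was lower (Mep1b) and none higher, a share close to the background, which was 8.47% of all genes lower and 11.4% higher. Libraries did not overlap for 4 lower genes (Mep1a, Mep1b, Lrp2 and Cubn) and for Dab2, which was higher, beside 23.6% lower and 23.1% higher. In ND + hIRI against ND + sham none of the 10 passed in either direction, nor did any other gene (0% lower and 0% higher). With edgeR's likelihood ratio test, DESeq2 and limma voom with quality weights, Mep1b passed as lower there and no other of the 10 genes passed. Of all genes, 0.688% were then lower and 1.72% higher with the likelihood ratio test. The shares were 1.04% lower and 2.11% higher with DESeq2, and 1.92% lower and 3.02% higher with voom. Libraries did not overlap for Mep1b, lower, and Vil1, higher, beside 10.7% and 10.9% of all genes. The diet by surgery interaction, which is the response to hIRI on HFD minus that on ND, passed for none of the 10, beside 0.0071% of all genes lower and 0.0071% higher. The medians for these 3 comparisons were -0.06, -0.12 and -0.11, beside -0.01, -0.00 and -0.01 for all genes. Comparisons that share a group share its 3 libraries, so their values are not independent of each other.

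**Figure D3:**
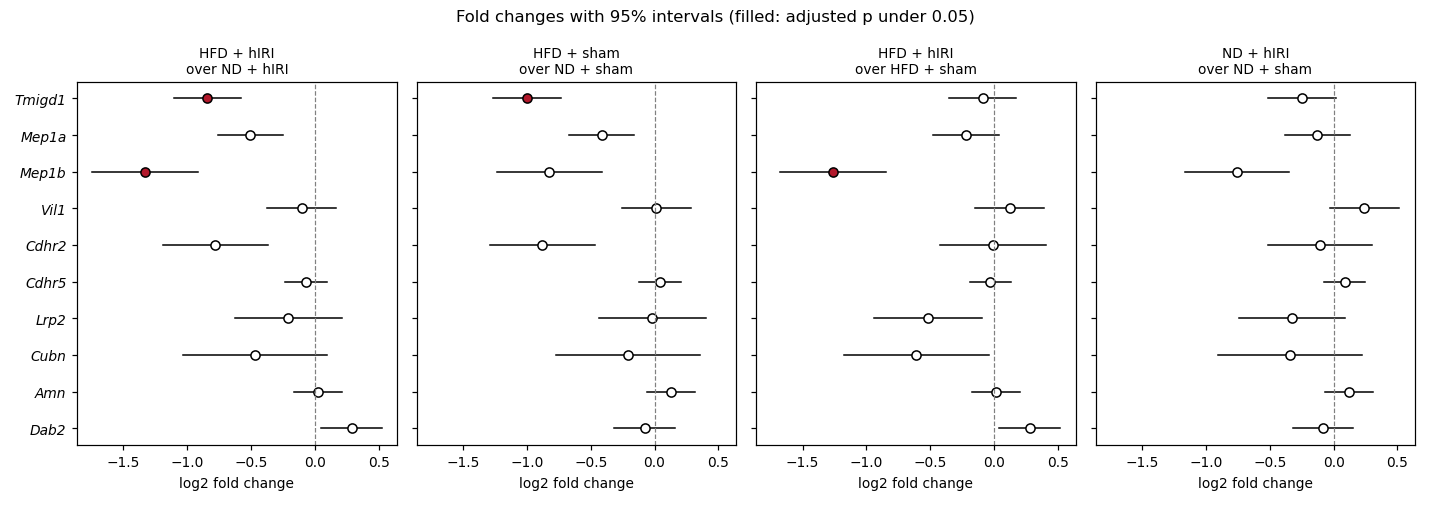
Log2 fold changes (horizontal axes) of the 10 genes in HFD + hIRI over ND + hIRI, HFD + sham over ND + sham, HFD + hIRI over HFD + sham, and ND + hIRI over ND + sham. Circles are estimates, lines their 95% intervals, and filled circles have an adjusted p under 0.05: Tmigd1 at -0.84 and Mep1b at -1.33 in the first panel, Tmigd1 at -1.001 in the second and Mep1b at -1.26 in the third.

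Seen library by library against the ND + sham mean, the median of the 6 brush border genes was -0.61, -0.77 and -0.86 in HFD + hIRI kidneys, -0.64, -0.62 and -0.53 in HFD + sham kidneys, and -0.27, -0.06 and 0.03 in ND + hIRI kidneys. The median of the 4 endocytic genes was -0.41, -0.22 and -0.11 in HFD + hIRI kidneys, -0.08, 0.05 and -0.10 in HFD + sham kidneys, and 0.01, -0.20 and -0.31 in ND + hIRI kidneys. These medians do not hold for each gene of a group. Vil1 and Cdhr5 lay between -0.15 and 0.33 in the 6 HFD libraries, while Dab2, at 0.35, and Amn, at 0.19, were above the ND + sham mean in HFD + hIRI replicate 1, where Lrp2 and Cubn were lowest.

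**Figure D4:**
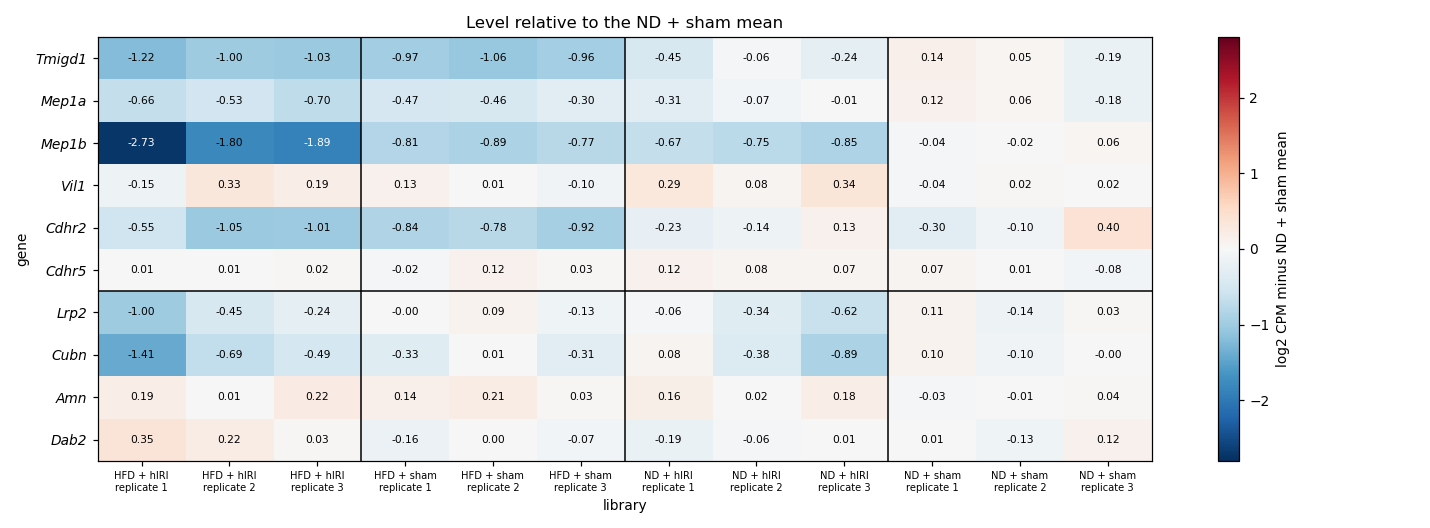
Log2 CPM of each gene (rows) in each of the 12 libraries (columns) minus the ND + sham mean of that gene, with blue for lower and red for higher. Tmigd1 lies between -1.22 and -0.96 in every HFD library, Mep1b reaches -2.73 in HFD + hIRI replicate 1, and Lrp2 and Cubn are lowest there, at -1.004 and -1.41.

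Other genes of the same structures were read from lists drawn up by known function. Of the 4 other genes of the intermicrovillar adhesion complex, none passed between diets, and Ush1c, which encodes harmonin, the scaffold under the protocadherins, was lower in HFD + hIRI against HFD + sham (69.3 ± 15.9 CPM against 101 ± 5.78 CPM, SD, n = 3 each, log2 fold change -0.55, edgeR adjusted p = 0.0395). That call held in 4 of 12 fits with a library left out, with adjusted p up to 0.113. In HFD + hIRI against ND + hIRI Ush1c had -0.58 (edgeR adjusted p = 0.0802). There it passed as lower with the likelihood ratio test (adjusted p = 0.0309), with DESeq2 (0.0175) and without HFD + hIRI replicate 3 (0.0291). Of 14 other genes of the actin core and its scaffold with a row, 2 were lower and 4 higher in HFD + hIRI against HFD + sham, beside 8.47% of all genes lower and 11.4% higher. The linker ezrin (Ezr) averaged 1493 ± 1288 CPM in HFD + hIRI kidneys against 463 ± 22.1 CPM in HFD + sham kidneys (1.69, adjusted p = 0.0297), and moesin (Msn) and the scaffold gene Slc9a3r1 were higher by 0.64 (adjusted p = 0.0318) and 0.40 (adjusted p = 0.0385), as was the actin nucleator Cobl, named after its value was seen (0.58, adjusted p = 0.0438). The scaffold genes Slc9a3r2 (-1.22, adjusted p = 0.0426) and Pdzk1 (-0.74, adjusted p = 0.0481) were lower. The Ezr difference was 0.69 without HFD + hIRI replicate 1 and still passed. Apart from Cobl, for which this was not computed, these calls were lost without any 1 of the 3 HFD + sham libraries, with adjusted p up to 0.131. Some were lost without other libraries too. Of 12 fits with a library left out, the Ezr call held in 9, Msn in 8, Slc9a3r1 in 4, Slc9a3r2 in 3 and Pdzk1 in 2. Without HFD + hIRI replicate 1 and ND + hIRI replicate 1 the counts were 1 lower for the adhesion complex and 3 lower and 4 higher for the core and scaffold. The shares of all genes were then 8.05% lower and 8.96% higher.

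Among the 14 other brush border peptidases and hydrolases, 2 were lower and none higher in HFD + hIRI against ND + hIRI, beside 0.816% of all genes lower and 0.532% higher. Angiotensin-converting enzyme (Ace) averaged 113 ± 27.5 CPM in HFD + hIRI kidneys against 267 ± 62.1 CPM in ND + hIRI kidneys (-1.24, edgeR adjusted p = 0.0300), and trehalase (Treh), which splits the sugar trehalose, averaged 72.7 ± 4.33 CPM in HFD + hIRI kidneys against 110.2 ± 19.0 CPM in ND + hIRI kidneys (-0.60, adjusted p = 0.0447). The Ace call held in 6 and the Treh call in 2 of 12 fits with a library left out, with adjusted p up to 0.128, and Ace missed, at 0.0561, without HFD + hIRI replicate 1 and ND + hIRI replicate 1. Both genes also passed as lower in the averaged diet contrast, Ace by -1.02 (adjusted p = 0.0116) and Treh by -0.61 (adjusted p = 0.0099). Of the same 14, 3 were lower and none higher in HFD + hIRI against HFD + sham, beside 8.47% of all genes lower and 11.4% higher. Among the 3 were neprilysin (Mme, -0.54, adjusted p = 0.0193) and aminopeptidase P2 (Xpnpep2, -0.76, adjusted p = 0.0129), both lost, with adjusted p up to 0.0765, without any 1 HFD + sham library. The other was aminopeptidase N (Anpep), named after its value was seen, at -0.64 (adjusted p = 0.0340). The median of the 14 was 0.00 after hIRI and -0.03 after sham between diets, beside -0.51 and -0.41 for Mep1a and -1.33 and -0.82 for Mep1b.

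Of 24 other genes of the endocytic apparatus, 1 was lower and 7 higher in HFD + hIRI against HFD + sham, with a median of 0.21. Of all genes, 8.47% were lower and 11.4% higher there, with a median of -0.01. Clathrin light chain b (Cltb) averaged 138 ± 16.8 CPM in HFD + hIRI kidneys against 101 ± 0.11 CPM in HFD + sham (0.45, edgeR adjusted p = 0.0175). The endosomal chloride-proton exchanger Clcn5 averaged 104 ± 10.1 CPM in HFD + hIRI kidneys against 66.0 ± 4.21 CPM in HFD + sham (0.66, adjusted p = 0.0179), and the endosome adaptor Appl1 was higher by 0.70 (adjusted p = 0.0220) while its relative Appl2 was lower by -0.66 (adjusted p = 0.0304). None of the 24 passed in the other 2-group comparisons. Of 15 other endocytic and scavenger receptors, 3 were higher and 1 lower in HFD + hIRI against HFD + sham, beside the same shares of all genes. Among them were the lysosomal receptor Scarb2 (0.62, adjusted p = 0.0190), the injury marker and phosphatidylserine receptor Havcr1 (3.93, adjusted p = 0.0195) and Lrp4 (-0.72, adjusted p = 0.0477). The Havcr1 difference was 2.28 without HFD + hIRI replicate 1 and still passed. The transferrin receptor Tfrc was higher in HFD + hIRI against ND + hIRI (302 ± 119.5 CPM against 75.5 ± 48.8 CPM, 1.998, adjusted p = 0.0450), and by 2.66 without ND + hIRI replicate 1. Each of the calls given was lost without any 1 HFD + sham library. With 1 library left out, those of Cltb, Clcn5, Appl2, Scarb2 and Havcr1 held in 9 of 12 fits and that of Appl1 in 7. The Lrp4 call held in only 3, with adjusted p up to 0.161, and the Tfrc call in only 2, with adjusted p up to 0.11. Without HFD + hIRI replicate 1 and ND + hIRI replicate 1 the counts were 1 lower and 5 higher of the apparatus and 0 lower and 3 higher of the receptors. In HFD + hIRI against HFD + sham the shares of all genes were then 8.05% lower and 8.96% higher. Over all genes the split of that comparison, 1194 lower and 1607 higher, turned to 1621 lower and 1052 higher with upper quartile scaling and to 2112 and 852 with library totals alone.

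The hepatocyte nuclear factors, which drive proximal tubule genes, had no call in any comparison under edgeR's quasi-likelihood test of the 12 libraries. Hnf4a averaged 599.5 ± 273 CPM in HFD + hIRI, 889 ± 28.5 CPM in HFD + sham, 945 ± 129 CPM in ND + hIRI and 811 ± 24.4 CPM in ND + sham. Its log2 fold change was -0.66 (SE 0.28, edgeR adjusted p = 0.166) for HFD + hIRI against ND + hIRI, and the other 3 factors were negative there too, with a median of -0.49 for the 4. Without HFD + hIRI replicate 3 Hnf4a passed as lower there (adjusted p = 0.0493), and in HFD + hIRI against HFD + sham both Hnf4a (-0.84, adjusted p = 0.0455) and Hnf4g (-1.65, adjusted p = 0.0098) did. Without replicate 1 of both hIRI groups Hnf4a did not pass between diets after hIRI (-0.43, adjusted p = 0.0829), and Hnf4g passed as lower in HFD + hIRI against HFD + sham (-0.73, adjusted p = 0.0350). In ND + hIRI against ND + sham, in that fit, Hnf4g was lower (-1.05, adjusted p = 0.0094) and Hnf4a higher (0.32, adjusted p = 0.0367). Hnf4g also passed as lower in HFD + hIRI against HFD + sham with all 12 libraries under the likelihood ratio test (adjusted p = 0.0253), DESeq2 (adjusted p = 0.0193) and limma voom (adjusted p = 0.0017), and Hnf4a there under limma voom (adjusted p = 0.0398).

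Markers of the cells around these genes moved with some of the results. The summed level of 7 markers of the last, straight segment of the proximal tubule (S3) was 2585 to 3307 CPM in HFD + hIRI, 3219 to 3543 CPM in HFD + sham, 3746 to 5195 CPM in ND + hIRI and 3435 to 4808 CPM in ND + sham, and 2 of the 7 passed as lower in the averaged diet contrast. That of 7 markers of the earlier segments (S1 and S2) was 7594 to 10438.5 CPM in HFD + hIRI, 9781 to 10893 CPM in HFD + sham, 9416 to 9551 CPM in ND + hIRI and 9765 to 10077 CPM in ND + sham, and none passed in any comparison. The S3 sum was lower in HFD + hIRI than in ND + hIRI without overlap, and overlapped between HFD + sham and ND + sham. The S3 markers did not all move 1 way, with 5 of the 7 negative in each of these comparisons. Their log2 fold changes ran from -3.68 to 0.68 after hIRI and from -3.07 to 0.53 after sham. In the averaged contrast 1.65% of all genes were lower and 1.1% higher. The S3 sum moved with the diet differences of Tmigd1, Mep1a, Mep1b and Cdhr2 after hIRI, and its part in them was not tested. No marker of S1, S2 or S3 was at 0 in any library. The summed level of 5 injured tubule markers was 221 to 3098 CPM in HFD + hIRI, 34.0 to 50.7 CPM in HFD + sham, 31.9 to 165 CPM in ND + hIRI and 23.3 to 35.1 CPM in ND + sham. It was highest in HFD + hIRI, where Mep1b, Lrp2 and Cubn were lowest, and its part in those results was not tested. None of 7 enterocyte markers had a row in the table. Sums for other cells also separated by diet. Between sham groups, 5 macrophage markers summed to 123 to 198 CPM in HFD + sham against 80.1 to 114 CPM in ND + sham, 4 podocyte markers to 423.95 to 468 CPM in HFD + sham against 315 to 380.2 CPM in ND + sham, and 3 distal convoluted tubule markers to 674 to 711 CPM in HFD + sham against 509 to 618 CPM in ND + sham. After hIRI, 6 collecting duct markers summed to 407.6 to 594 CPM in HFD + hIRI against 632 to 668 CPM in ND + hIRI, 5 hepatocyte markers to 259.5 to 368 CPM in HFD + hIRI against 102 to 238 CPM in ND + hIRI, and the 2 adrenal cortex markers with a row, of 5, to 27.7 to 67.7 CPM in HFD + hIRI against 4.48 to 16.5 CPM in ND + hIRI. No single marker of these 6 lists passed in either comparison of diets or in the averaged contrast, none was at 0 in any library, and their part in the diet differences was not tested.

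Likeness was measured by Pearson's r over the 12 libraries between a gene and the mean of the scaled members, among the 9787 genes whose log2 CPM averaged 3 or more. The genes most like the brush border genes were Amdhd2 (0.95), Arhgef16 (0.94), Coasy (0.93), Tmem56 (0.92) and Sugp1 (0.92). Among those most like the endocytic genes were Secisbp2 (0.89), Atic (0.89), Them6 (0.85) and Alg2 (0.84). The 12 libraries share the 4 groups, so such values describe a shared pattern and no more.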

How the data were processed

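RNA from 12 mouse kidneys was sequenced as paired-end libraries. Per the submitters' processing notes the authors used FastQC 0.11.5, STAR 2.7.10a on mm10, featureCounts (Subread 2.0.3) and edgeR 3.42.4, and deposited 1 table of 14091 genes with raw read counts per library. Nothing in the sources used here gives the annotation, strand setting or low-count filter. The authors also deposited log2 CPM values per library, gene lengths, and the fold changes, p-values and FDR of their own comparisons. Of these only the lengths were used, for levels per kilobase. No per-sample column was left without a sample.

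The 10 genes and the gene lists were chosen with earlier results of these data known. Groups followed the labels. Counts were fitted with edgeR 4.0.16 (robust quasi-likelihood, TMM, filterByExpr, which removed 0 genes) in R 4.3.3, with all 12 libraries in 1 model, and p-values were adjusted by Benjamini-Hochberg over all genes at 0.05. SE is the log2 fold change divided by the root of the test's F. Log2 CPM used a prior count of 2. The code was tested on simulated data. The text names all 10 genes. From each list it names the 3 of smallest p that passed in each direction (the 10 genes counted among them), or the first 2 by p where none passed, except where said. The values of 3 further genes that this rule or the likeness measure picks are not reported here. Alternatives were other scalings (DESeq2 size factors, upper quartile, library totals), no filter, at least 10 counts in every library, edgeR's likelihood ratio test, DESeq2 1.42.0, limma 3.58.1 voom with quality weights, a fit of the compared libraries only, a replicate block, a covariate for the run of library numbers, a fit with the trend on gene length taken out, and each library left out. Library names are numbered 404 to 408 and 415 to 424, and this run of numbers was the covariate, all HFD + hIRI libraries lying in the second. No 2 libraries of a group agreed within sampling noise. Promoter letters were searched with Python 3.11.15 and pandas 2.3.3, and figures were drawn with matplotlib 3.10.9. Gene spans are those of the deposited table. Exon counts are those of the longest GENCODE transcript, and the overlapping genes are also from GENCODE. Genes overlapping on opposite strands could share reads, and with 3 libraries a group an exact permutation test of 2 groups could not reach 0.05. No permutation test was run, for the averaged contrast included.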

Additional observations from a re-analysis of the deposited data

Results flagged for a closer look

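Cdhr5 was set apart because its libraries moved opposite ways on the 2 diets. All 3 HFD + hIRI libraries lay below the HFD + sham mean, and all 3 ND + hIRI libraries lay above the ND + sham mean. The mean log2 response on HFD minus that on ND was -0.114, a difference chosen by that pattern, which is no test of it. In the edgeR fit of all genes the difference between diets was -0.11 (SE 0.11, adjusted p = 0.662), which did not pass, and group means ran only from 192 to 203 CPM.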

How the results depend on the processing

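Over all 10 genes, the averaged diet contrast kept 4 lower under every other setting, with 2 to 4 when 1 library was left out, and the diet by surgery interaction had none called throughout. In the averaged contrast the share of all genes lower ran from 1.44% to 5.72% over the other settings. It ran from 0.170% to 5.02% with 1 library left out. In HFD + hIRI against ND + hIRI the 2 lower genes became 3 with upper quartile scaling, 4 with library totals alone, the likelihood ratio test, DESeq2 and voom with quality weights, and 0 with only the libraries compared, and with 1 library left out the count ran from 0 to 4 lower and 0 to 1 higher. The share of all genes lower, 0.816% in the main fit, was 0.582% with upper quartile scaling and 1.08% with library totals. It was 4.00% with the likelihood ratio test, 5.94% with DESeq2, 3.00% with voom and 0% with only the libraries compared. With 1 library left out it ran from 0.0142% to 7.71%, and the share higher from 0.0142% to 10.5%. In HFD + sham against ND + sham the 1 lower gene became 3 with the likelihood ratio test, 4 with DESeq2 or voom with quality weights, 2 with only the libraries compared or without replicate 1 of both hIRI groups, and 0 with 10 counts in every library or the run of library numbers, with 0 to 2 when 1 library was left out. The share of all genes lower, 0.0142% in the main fit, was 0.163% with the likelihood ratio test, 0.483% with DESeq2 and 1.08% with voom. It was 0.774% with only the libraries compared and 0.213% without replicate 1 of both hIRI groups. It was 0% with 10 counts in every library or the run of library numbers. In HFD + hIRI against HFD + sham the 1 lower gene became 3 with library totals or voom with quality weights, 2 with DESeq2 and 0 with the run of library numbers, the count higher became 1 with DESeq2 (Dab2) and 2 with voom with quality weights (Vil1 and Dab2), and 1 library left out gave 0 to 3 lower and 0 to 1 higher. In ND + hIRI against ND + sham the count lower became 1 with the likelihood ratio test, DESeq2 or voom with quality weights and 3 without replicate 1 of both hIRI groups, and 0 to 1 with 1 library left out. The share of all genes lower was 0.688% with the likelihood ratio test, 1.04% with DESeq2 and 1.92% with voom. Without replicate 1 of both hIRI groups it was 7.29%.

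The replicate number was not taken as a pairing, with 6 of 18 correlations of same-numbered deviations over 0.1 (range -0.42 to 0.21). They ran from 0.17 to 0.20 between ND + hIRI and ND + sham and from -0.42 to -0.09 between HFD + hIRI and ND + hIRI. Libraries of different numbers were not correlated, so these values cannot decide whether the numbers pair the libraries. With the replicate block the Tmigd1 call between sham groups was not made (0 lower, adjusted p = 0.0962), and over all genes 147 passed in HFD + hIRI against ND + hIRI, 0 in HFD + sham against ND + sham and 1870 in HFD + hIRI against HFD + sham. The block changed no other count of the 10 genes. Over all genes the number called between HFD + hIRI and ND + hIRI was 190 and ran from 0 to 1783 over the other settings, that between HFD + hIRI and HFD + sham was 2801 and ran from 18 to 5836, that between sham groups was 2 and ran from 0 to 316, that between ND groups was 0 and ran from 0 to 696, that of the interaction was 2 and ran from 0 to 33, and that of the averaged contrast was 387 and ran from 331 to 1488. With 1 library, or replicate 1 of both hIRI groups, left out, the same numbers ran from 4 to 2559, from 1 to 4742, from 0 to 64, from 0 to 2322, from 0 to 7 and from 38 to 1469, in that order, so the background shares move as widely. The all-gene median moved by -0.12 with library totals in HFD + hIRI against ND + hIRI, where the split of 115 lower and 75 higher became 152 and 34. It moved by -0.17 in HFD + hIRI against HFD + sham and by -0.11 there with upper quartile scaling, and by -0.11 in the interaction. The split of the averaged contrast, 232 lower and 155 higher, became 279 and 95 with library totals.

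Signs turned only for fold changes that did not pass under the quasi-likelihood test of all 12 libraries. For Amn in HFD + hIRI against ND + hIRI they were -0.037 with upper quartile scaling, -0.097 with library totals, -0.00055 with 10 counts in every library, -0.046 with voom and -0.025 to 0.083 with libraries left out, and against HFD + sham -0.097, -0.15, -0.020, -0.079 and -0.057 to 0.075 in the same order, and -0.0084 without replicate 1 of both hIRI groups. For Vil1 they were -0.036 with library totals in HFD + hIRI against HFD + sham, 0.065 with voom, 0.045 without both replicates 1 and -0.21 to 0.045 with libraries left out in HFD + hIRI against ND + hIRI, and -0.0087 with the run of library numbers and -0.046 to 0.077 with libraries left out between sham groups. In HFD + hIRI against HFD + sham, where its sign turned with library totals, Vil1 passed as higher with voom (0.25, adjusted p = 0.0335). In the interaction Vil1 was 0.036 with voom, 0.030 without both replicates 1 and -0.22 to 0.030 with libraries left out, and in the averaged contrast 0.047, 0.029 and -0.097 to 0.029. Cdhr2 was 0.023 with the length trend removed and -0.19 to 0.082 with libraries left out in HFD + hIRI against HFD + sham, -0.25 to 0.12 in ND + hIRI against ND + sham, and in the interaction -0.015 with library totals, -0.14 with voom, -0.049 with the run of library numbers, -0.15 without both replicates 1 and -0.15 to 0.24 with libraries left out. Cdhr5 was 0.011 with the run of library numbers, 0.0062 with the length trend removed and -0.061 to 0.012 with libraries left out in HFD + hIRI against HFD + sham, and 0.0080 and -0.035 to 0.0039 in the averaged contrast. Libraries left out, the pair included, gave -0.38 to 0.13 for Lrp2 and -0.68 to 0.025 for Cubn in HFD + hIRI against ND + hIRI, -0.36 to 0.15 for Lrp2 and -0.48 to 0.23 for Cubn in the interaction, and for Lrp2 -0.20 to 0.059 in the averaged contrast and -0.082 to 0.047 between sham groups, the high end being that without both replicates 1 except between sham groups. Cubn in the interaction was 0.029 with voom. The cause of these changes was not tested.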
